A study of Mus musculus with 15 samples.

Results

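The gene Vgf and 9 other genes of secreted neuropeptides and their processing are described here across 4 treatment groups of a mouse brain tumour model, 10 of the 38172 gene symbols in the deposited table. Rows were taken by symbol: Vgf, Scg2, Chga, Chgb, Nts, Cck, Cartpt, Adcyap1, Pdyn and Pcsk1. Vgf and Nts were chosen by their measured TPM, high after anti-PD1 or the combination in these same libraries, so their levels are given as a description with no test, and the other 8 were tested. These 8 and the gene lists below were also chosen with earlier results of these data known. Their tests and shares are therefore not independent of that choice. Bulk RNA was sequenced from 15 samples of low-grade glioma taken from nestin-TVA mice, in which cells that express nestin carry the receptor for the avian viruses shed by DF-1 chicken cells. DF-1 cells carrying mutant IDH (R132H) and DF-1 cells carrying the growth factor PDGFB were injected together into the brain, so all 4 groups share the IDH-mutant, PDGFB-driven tumour. After MRI at day 28, mice were treated for 9 days by intraperitoneal injection and tumours were collected at day 37. The groups were the combination of anti-PD1 and vorinostat (n = 4), anti-PD1 alone, an antibody against the T cell checkpoint receptor PD-1 given at 1 mg per injection (n = 4), vorinostat alone, a histone deacetylase inhibitor given at 1 mg per day (n = 4), and placebo control, the vehicle of vorinostat (n = 3). A control antibody is not named in the labels. Ages of the mice were not given in the labels, and the labels do not say that replicates are separate animals, so p-values measure only the spread between these samples.

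Neuropeptides are made as long precursors, sorted into dense-core vesicles of neurons and endocrine cells, and cut there into active peptides by convertases such as the product of Pcsk1. Granins (Chga, Chgb, Scg2 and Vgf) are abundant cargo of these vesicles and are themselves cut into peptides. In the forebrain, peptide genes mark neuron classes: Pdyn and Tac1 are known from striatal neurons of the direct pathway, Penk from those of the indirect pathway, and Cck and Sst from cortical interneurons. Vgf is known as a gene that neurotrophins and neuronal activity induce.

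Values are TPM, read counts scaled by gene length and library size, and libraries held between 80.4 and 160.0 M whole reads, recovered from them. The labelled cell type, low-grade glioma cells, was only part of what was sequenced. The 9 glioma and progenitor genes (such as Olig2 and Pdgfra) had summed TPM of 1748 to 7022 in combination, 1578 to 5928 in anti-PD1, 3834 to 11778 in vorinostat and 4842 to 6920 in control tumours. All 16 pan-neuronal genes (such as Snap25 and Rbfox3) were detected in each group as well. Their summed TPM lay between 971 and 1485 in combination, 1360 and 2379 in anti-PD1, 562 and 1755 in vorinostat and 846 and 1417 in control tumours. In such bulk samples, fewer cells of a type and less RNA per cell cannot be told apart.

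All 10 members are protein-coding genes that passed the filter for testing, at least 1 TPM in at least 3 libraries. In build mm10 Vgf lies at chr5:137026392-137033351 (+ strand), Scg2 at chr1:79434669-79440120 (−), Chga at chr12:102554969-102565028 (+) and Chgb at chr2:132781278-132795079 (+). Nts lies at chr10:102481756-102490486 (−), Cck at chr9:121489824-121495694 (−), Cartpt at chr13:99898489-99901091 (−) and Adcyap1 at chr17:93199017-93206537 (+). Pdyn lies at chr2:129686565-129699844 (−), and Pcsk1 at chr13:75089826-75134861 (+).

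The promoters of several members carry the cAMP response element, the palindrome bound by CREB-family factors. RefSeq promoters (GRCm38.p6) were found for 9 members with 11 start sites, and Vgf was the member without an entry. In the 250 bases before a start, the full element (CRE, TGACGTCA) was found in 4 of the 9 members. Its first base lay at −68 in Scg2, −72 in Chgb, −78 in Pcsk1 and −112 in Cartpt, counted back from the start. Over all 32851 promoters of 27025 genes in the table, 1.55% held it. The half-site of the element (TGACG or, on the other strand, CGTCA) was found in 8 members, against 17.8% of all promoters, and each full element contains it on both strands. The AP-1 letters TGANTCA, known as the site of Fos and Jun dimers, were found in Nts alone among the 9, at −207, against 6.75% of all promoters. Pdyn had none of the 3 motifs before either of its starts. A match is a description of letters and no evidence of binding. The 4 sequences below are given 5′ to 3′ on the strand of the gene: Scg2 and Cartpt as members with the full element, Nts as the member with AP-1 letters, and Pdyn as the member whose level passed the test. Capitals mark the full CRE or the AP-1 letters.
Scg2, chr1:79440027-79440276, − strand: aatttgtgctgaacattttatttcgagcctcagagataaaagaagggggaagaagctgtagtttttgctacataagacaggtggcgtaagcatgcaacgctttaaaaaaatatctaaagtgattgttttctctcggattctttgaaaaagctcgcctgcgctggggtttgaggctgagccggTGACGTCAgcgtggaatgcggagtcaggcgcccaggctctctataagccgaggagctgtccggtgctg
Cartpt, chr13:99900684-99900933, − strand: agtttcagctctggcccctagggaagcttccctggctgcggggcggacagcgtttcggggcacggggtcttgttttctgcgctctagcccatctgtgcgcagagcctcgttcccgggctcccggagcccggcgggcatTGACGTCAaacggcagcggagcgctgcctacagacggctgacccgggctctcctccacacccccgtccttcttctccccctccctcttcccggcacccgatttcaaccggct
Nts, chr10:102490419-102490668, − strand: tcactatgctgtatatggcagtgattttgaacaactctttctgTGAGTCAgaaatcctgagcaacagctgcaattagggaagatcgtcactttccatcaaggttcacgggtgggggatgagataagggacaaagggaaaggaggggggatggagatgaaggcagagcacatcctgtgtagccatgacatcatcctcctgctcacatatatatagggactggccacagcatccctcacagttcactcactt
Pdyn, start 1, chr2:129699939-129700188, − strand: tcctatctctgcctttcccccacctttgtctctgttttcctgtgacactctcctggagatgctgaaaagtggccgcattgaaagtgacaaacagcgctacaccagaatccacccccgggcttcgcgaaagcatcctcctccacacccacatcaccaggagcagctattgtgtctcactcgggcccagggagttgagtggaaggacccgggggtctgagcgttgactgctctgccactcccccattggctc

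**Figure D1:**
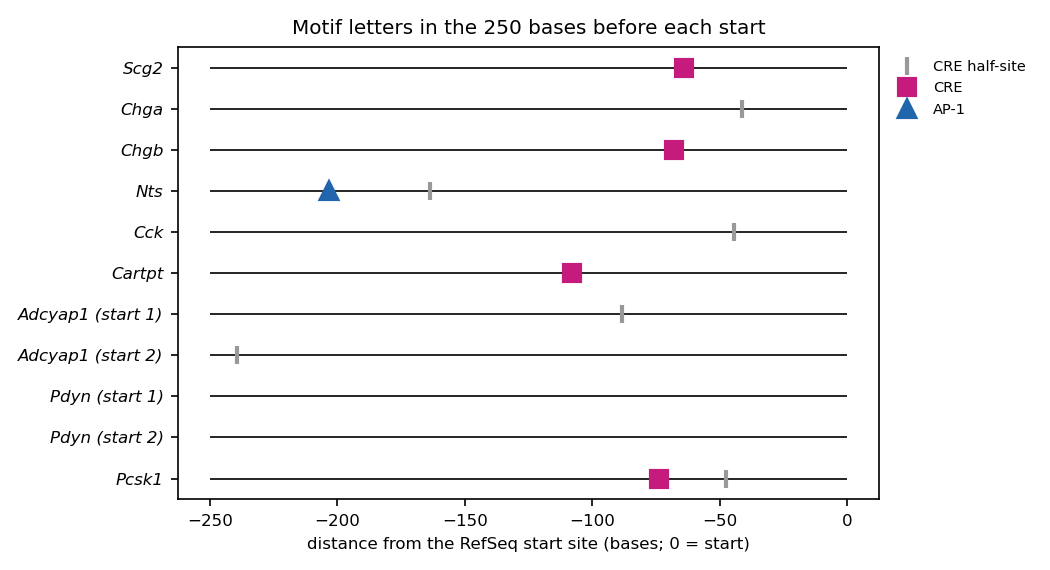
Motif letters in the 250 bases before each of 11 RefSeq start sites of 9 members, plotted by distance from the start in bases. Squares mark the full CRE, the triangle AP-1 letters and ticks each CRE half-site, also those inside a full element. The first bases of the 4 full elements lie between −112 and −68.

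The deposited TPM used gene spans with introns as lengths, so levels of different genes are set side by side here as RPKM over exon bases, computed from the recovered reads and averaged over the 15 libraries (mean ± SD). Granins led, with Scg2 at 84.9 ± 47.9 and Chgb at 76.5 ± 38.3, followed by Vgf at 36.5 ± 20.2 and Chga at 31.2 ± 14.5. Neighbours in each of those 2 pairs differed by less than their SD. Among the peptide precursors Cck had 19.0 ± 9.4, Nts 9.81 ± 10.6, Pdyn 9.74 ± 7.48, Cartpt 6.05 ± 5.87 and Adcyap1 2.50 ± 1.60, and the convertase gene Pcsk1 had 4.17 ± 1.98. From Nts down the order, neighbours differed by less than the larger of their SDs. Each member had between 114 and 46237 reads in a library.

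Vgf was lower in every control tumour than in any treated one and highest, on average, in the combination. It had 119, 204, 175 and 275 TPM in combination tumours and 205, 96.8, 152 and 184 TPM in anti-PD1 tumours. In vorinostat tumours it had 77.0, 56.8, 88.3 and 140 TPM, against 38.5, 41.7 and 53.9 TPM in control tumours. Each of the 12 treated tumours thus lay above each control, the combination and anti-PD1 values overlapped widely, and 1 vorinostat tumour reached into the anti-PD1 range. Group means (± SD) were 193 ± 65.0 TPM for the combination, 159 ± 47.1 TPM for anti-PD1, 90.6 ± 35.6 TPM for vorinostat and 44.7 ± 8.14 TPM for control. The combination and anti-PD1 means differed by less than either SD. On the log2(TPM + 1) scale the difference from control was 2.04 (SE 0.33) for the combination, 1.77 (SE 0.33) for anti-PD1 and 0.94 (SE 0.33) for vorinostat, which share the 3 controls. The difference between combination and anti-PD1 was 0.27 (SE 0.31).

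Nts, the neurotensin precursor, followed another order, with anti-PD1 alone on top. It had 11.6, 13.9, 2.30 and 1.77 TPM in combination tumours and 46.7, 24.1, 16.9 and 16.5 TPM in anti-PD1 tumours. In vorinostat tumours it had 9.59, 8.69, 2.41 and 5.38 TPM, against 2.64, 1.66 and 3.71 TPM in control tumours. All anti-PD1 tumours lay above all others, and the combination split into 2 tumours above and 2 within the control range. The log2 difference from control was 0.85 (SE 0.60) for the combination, 2.79 (SE 0.60) for anti-PD1 and 0.94 (SE 0.60) for vorinostat. Combination minus anti-PD1 was −1.94 (SE 0.56). Whether Vgf and Nts differ in their pattern was not tested.

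**Figure D2:**
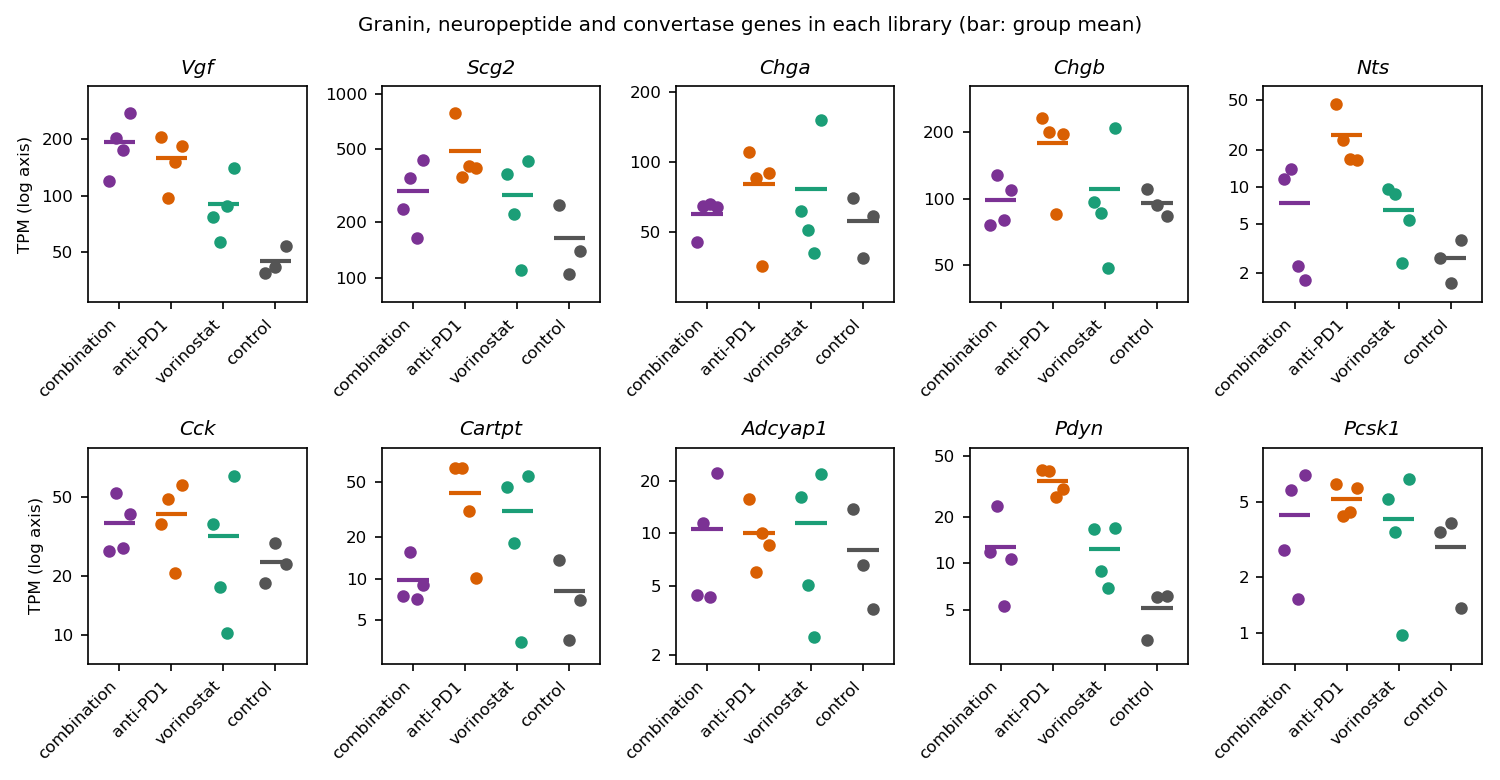
TPM of each of the 10 members in each library (log axis, scaled separately for each gene), 1 point per library and a bar at the group mean, with groups in the order combination, anti-PD1, vorinostat and control. Vgf is above the 3 controls in all 12 treated tumours, whereas Nts and Pdyn are highest in the 4 anti-PD1 tumours. Vgf and Nts were chosen for their levels, and the share of all genes with either pattern was not computed.

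What anti-PD1 alone went with was addressed by anti-PD1 against control, and of the 8 members tested Pdyn rose and the other 7 did not pass. Pdyn encodes prodynorphin, the precursor of the dynorphin opioid peptides. It had 11.8, 23.5, 5.26 and 10.7 TPM in combination tumours and 40.6, 39.7, 26.9 and 30.3 TPM in anti-PD1 tumours. In vorinostat tumours it had 16.8, 8.86, 6.96 and 16.9 TPM, against 3.18, 6.0 and 6.18 TPM in control tumours. The 4 anti-PD1 tumours lay above every other tumour, and the share of all genes with that pattern was not computed. Nts had it as well, but it was chosen for its high level there. Pdyn averaged 34.4 ± 6.82 TPM with anti-PD1 (SD, n = 4) and 5.12 ± 1.68 TPM in control tumours (n = 3), a log2 change of 2.55 (SE 0.40, limma adjusted p = 0.0151 over 19390 genes), or 5.87-fold on TPM + 1. By the same rule 1026 genes changed, 5.29% of those tested, and 1.77% rose, against 1 of the 8 members, a set chosen with earlier results known. The call rested on all 3 controls: without control 1, 2 or 3 the change was 2.30, 2.67 or 2.69 and limma's adjusted p 0.0772, 0.0537 or 0.0632. Over all genes 0, 2 and 11 changed in those 3 fits. Of the 15 genes of the lists described below that were called with anti-PD1, 0, 0 and 1 were still called in them, the 1 being Penk.

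The granins other than Vgf did not pass in the same comparison. Scg2, the secretogranin II gene, had 235, 349, 164 and 436 TPM in combination tumours and 787, 354, 406 and 394 TPM in anti-PD1 tumours. It had 364, 222, 110 and 432 TPM in vorinostat tumours, against 248, 105 and 139 TPM in control tumours. All anti-PD1 values of Scg2 lay above all controls, while the other 2 treated groups overlapped them. Its change with anti-PD1 was 1.57 (SE 0.47, limma adjusted p = 0.0602), and it passed without anti-PD1 library 3 (1.63, adjusted p = 0.0416) or without vorinostat library 3 (1.57, adjusted p = 0.0371). Over all genes 4982 and 1940 passed without those libraries, against 1026 in the main fit. The chromogranin genes had smaller differences. Chgb averaged 178 ± 64.3 TPM with anti-PD1 (n = 4), against 95.4 ± 13.8 TPM in control tumours (n = 3). The difference was 0.81 (SE 0.42, limma adjusted p = 0.184). It passed without anti-PD1 library 3 (1.13, limma adjusted p = 0.0495), the fit in which 4982 genes passed. Chga averaged 80.5 ± 31.7 TPM with anti-PD1 (n = 4), against 55.9 ± 15.9 TPM in control tumours (n = 3), a difference of 0.45 (SE 0.43, limma adjusted p = 0.459).

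Cartpt, the precursor of the CART peptide of appetite and reward circuits, varied widely within groups. It had 7.48, 15.6, 7.14 and 9.07 TPM in combination tumours and 63.3, 62.7, 30.8 and 10.1 TPM in anti-PD1 tumours. It had 46.3, 18.0, 3.48 and 55.6 TPM in vorinostat tumours, against 13.7, 3.63 and 6.96 TPM in control tumours. In the anti-PD1 group 1 tumour lay within the control range, in the vorinostat group 1 lay below it, and the combination overlapped it. The anti-PD1 change was 2.09 (SE 0.80, limma adjusted p = 0.0981), which passed without vorinostat library 3 (adjusted p = 0.0485). In that fit 1940 genes passed, against 1026 in the main fit. For Cck, the cholecystokinin precursor, the difference with anti-PD1 was 0.70 (SE 0.50), with group means of 41.0 ± 16.1 TPM for anti-PD1 and 23.6 ± 5.53 TPM for control. Adcyap1, the precursor of the peptide PACAP, differed by 0.38 (SE 0.67), and its values ranged from 5.98 to 15.7 TPM with anti-PD1, against 3.68 to 13.7 TPM in control tumours. The convertase gene Pcsk1 ranged from 4.24 to 6.28 TPM with anti-PD1, against 1.37 to 3.85 TPM in control tumours, a difference of 0.73 (SE 0.46, limma adjusted p = 0.265).

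Counted by overlap, the anti-PD1 values lay above all controls in 3 of the 8 members tested (Scg2, Pdyn and Pcsk1), against 8.26% of all genes tested. They did so in Vgf and Nts as well, which were chosen for their levels. All 8 members had positive changes with anti-PD1, with a median of 0.77, against a median of −0.14 over all genes. The 16 pan-neuronal genes had a similar median of 0.78, and 15 of them were positive, so this shift was not particular to the members. Unadjusted p was under 0.05 for 3 of the 8, against 34.2% of all genes. With the mean of 16 pan-neuronal genes as a covariate (described below), Chga, Cck and Adcyap1 turned negative and Pcsk1 was at 0.00. Rescaling by median-of-ratios size factors moved the median of all genes by 0.13 in this comparison and turned the direction of no member. The voom test on recovered reads also called Pdyn alone of the 8 with anti-PD1 and none of them in the other 5 comparisons.

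**Figure D3:**
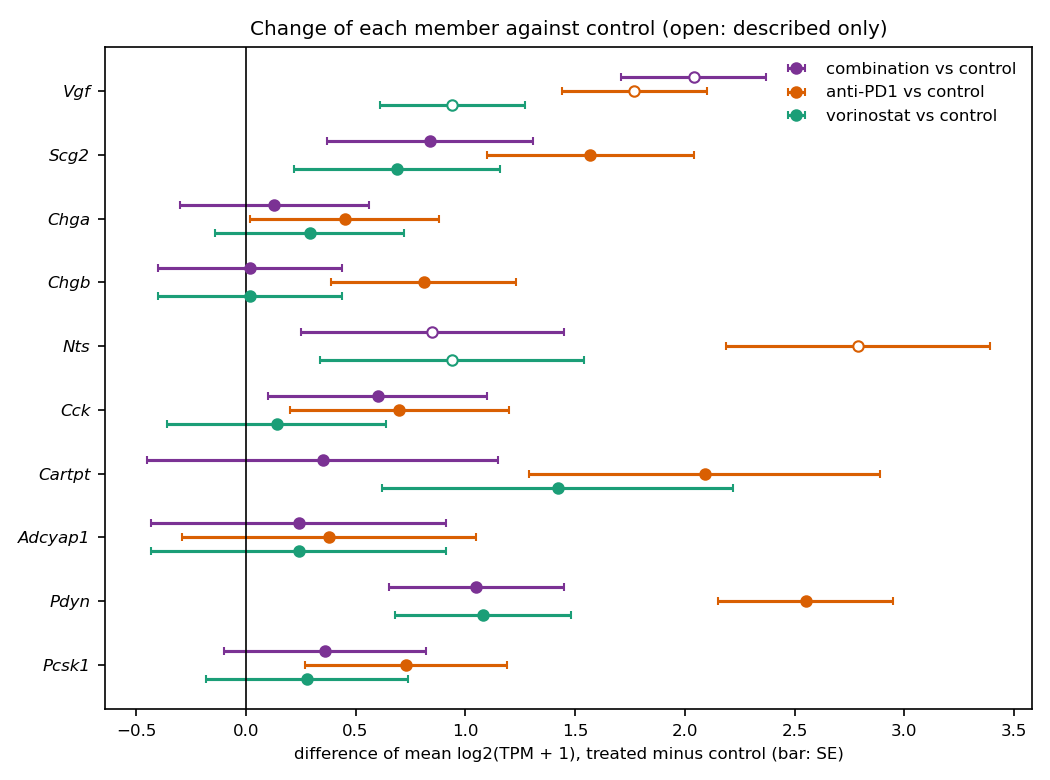
Difference of mean log2(TPM + 1) from control for the 10 members in combination, anti-PD1 and vorinostat tumours, with SE bars; open points are Vgf and Nts, which were not tested. The largest anti-PD1 differences are those of Nts (2.79) and Pdyn (2.55), and in the combination that of Vgf (2.04).

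What vorinostat alone went with was addressed by vorinostat against control. None of the 8 members tested passed in limma's test, where 0.00516% of all genes did. Values of Vgf, chosen for a rise over the same 3 controls, lay above them in all 4 vorinostat tumours. Those of Pdyn did as well, against 1.34% of all genes. Its change was 1.08 (SE 0.40, limma adjusted p = 1), the single member with an unadjusted p under 0.05, against 2.52% of all genes. All 8 changes were positive, from 0.02 for Chgb to 1.42 for Cartpt (SE 0.80), and those of Chga, Chgb, Cck, Adcyap1 and Pcsk1 turned negative in 1 or more fits that leave out a library. Their median was 0.29, against −0.05 over all genes.

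In the combination none of the 8 passed against control either, where 0.0206% of all genes did. Pdyn had the largest change among them, 1.05 (SE 0.40, limma adjusted p = 0.726), followed by Scg2 with 0.84 (SE 0.47, adjusted p = 0.974). Pdyn alone had an unadjusted p under 0.05, against 5.76% of all genes, and of all 10 members only Vgf, chosen for its level there, had every combination value above every control, against 3.56% of all genes. The remaining granins were close to control. Chgb averaged 98.3 ± 24.8 TPM in combination tumours (n = 4) and 95.4 ± 13.8 TPM in control tumours (n = 3), and Chga 60.2 ± 9.88 TPM in combination tumours and 55.9 ± 15.9 TPM in control tumours. The median of the 8 changes was 0.35, against −0.03 over all genes.

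What vorinostat added to anti-PD1 was addressed by combination against anti-PD1. None of the 8 members passed in limma's test, where 0.0155% of all genes did, and 2 had an unadjusted p under 0.05, against 23.5% of all genes. All 8 differences were negative, with a median of −0.55 against 0.13 over all genes. The 16 pan-neuronal genes had a median of −0.72, with 0 positive. With the pan-neuronal covariate 4 of the 8 member differences turned positive (Adcyap1 0.74, Cck 0.68, Chga 0.29 and Pcsk1 0.29). Those of Cck and Adcyap1 also turned positive without single libraries. Pdyn averaged 12.8 ± 7.68 TPM in combination tumours and 34.4 ± 6.82 TPM with anti-PD1 (n = 4 each), with no overlap, a difference of −1.50 (SE 0.37, limma adjusted p = 0.13). Of all genes, 1.68% had all combination values below all anti-PD1 values, as Pdyn did. Nts did as well, but it was chosen for its high level with anti-PD1. Cartpt had −1.74 (SE 0.74, limma adjusted p = 0.196) and Scg2 −0.73 (SE 0.44, adjusted p = 0.295). With the replicate number as a block, 115 genes changed in place of 3, and no member was among them.

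The effect of anti-PD1 averaged over tumours with and without vorinostat passed for none of the 8 members in limma's test, where 0.469% of all genes passed, and 2 had an unadjusted p under 0.05, against 22.1% of all genes. Pdyn came nearest, with 1.26 (SE 0.27, limma adjusted p = 0.055). Among the fits that leave out a library it passed without combination library 3 (1.42, limma adjusted p = 0.0377), without anti-PD1 library 3 (1.32, adjusted p = 0.0432) or without vorinostat library 4 (1.35, adjusted p = 0.0449). Over all genes 50, 565 and 335 passed in those fits, in that order, against 91 in the main fit. Vgf had 1.43 (SE 0.22) and Nts 1.35 (SE 0.41), both untested. The interaction, the effect of anti-PD1 with vorinostat minus that without it, was negative for all 8 members with a median of −0.73, against 0.18 over all genes. The 16 pan-neuronal genes had a median of −0.77, with 1 positive. With the pan-neuronal covariate the interaction turned positive for 4 of the 8 members (Cck 0.61, Adcyap1 0.59, Pcsk1 0.08 and Chga 0.06). For Cck and Adcyap1 it also did so without single libraries. None of the 8 members passed in limma's test, where 0.0103% of all genes did. Cartpt had −3.16 (SE 1.09, adjusted p = 0.271), Pdyn −2.58 (SE 0.55, adjusted p = 0.19) and Scg2 −1.42 (SE 0.65, adjusted p = 0.302). These 3 had an unadjusted p under 0.05, against 16.4% of all genes. Without a test, Nts had −2.89 (SE 0.82) and Vgf −0.67 (SE 0.45).

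Neuron markers moved with most members but little with Vgf. The mean log2(TPM + 1) of the 16 pan-neuronal genes was 4.91 ± 0.27 in combination, 5.53 ± 0.34 in anti-PD1, 4.90 ± 0.69 in vorinostat and 4.84 ± 0.33 in control tumours. Over the 15 libraries, whose shared treatment groups add to any correlation, Pearson's r of a member with this mean ran from 0.59 for Adcyap1 to 0.91 for Chgb in 9 members (Spearman's rho 0.58 and 0.88). For Vgf r was 0.26 and rho 0.31, and r was 0.04 after group means were removed, where Chgb had 0.86. Without the 2 libraries farthest from the median of this mean, r was 0.35 for Vgf and 0.86 for Chgb. With this mean as a covariate, Vgf had differences of 2.04 (SE 0.34) in the combination, 1.74 (SE 0.40) with anti-PD1 and 0.94 (SE 0.34) with vorinostat. With a within-group r of 0.04 the covariate could move them little, and Vgf was chosen by its level. No conclusion on neuron content is drawn from these values, and the striatal mean was not used as a covariate. With the covariate the anti-PD1 difference of Chgb was 0.01 (SE 0.26), of Pcsk1 0.00 (SE 0.39), of Scg2 0.81 (SE 0.40) and of Cartpt 0.55 (SE 0.50). That of Pdyn was 2.02 (SE 0.39, limma adjusted p = 0.0647), so its call was lost.

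**Figure D4:**
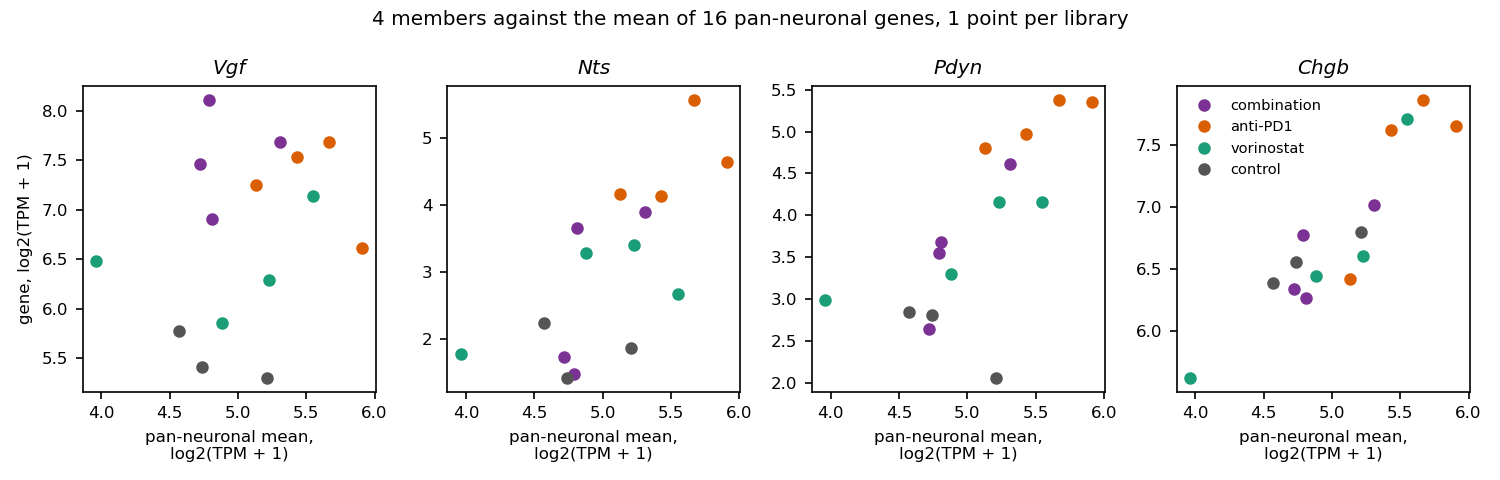
Log2(TPM + 1) of Vgf, Nts, Pdyn and Chgb against the mean log2(TPM + 1) of 16 pan-neuronal genes, 1 point per library, coloured by group. Chgb follows the neuron mean (r = 0.91), whereas Vgf follows it less closely (r = 0.26) and has its 3 controls at the bottom at neuron means of 4.57 to 5.21.

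Striatal markers varied with Nts and Pdyn. The 10 striatal projection neuron genes had mean log2(TPM + 1) of 4.01 ± 0.94 in combination, 5.16 ± 0.43 in anti-PD1, 4.01 ± 0.43 in vorinostat and 3.12 ± 0.16 in control tumours, and none was at 0 in a group. Their summed TPM lay between 188 and 839 in combination, 874 and 1838 in anti-PD1, 328 and 632 in vorinostat and 161 and 253 in control tumours. With anti-PD1 against control 7 of the 10, a list chosen with earlier results known, rose in limma's test, where 1.77% of all genes rose. Among the 7 were the dopamine receptor gene Drd1 (2.48, adjusted p = 0.0206) and Rgs9, a regulator of G protein signalling (1.50, adjusted p = 0.0206). Across the 15 libraries r with this mean was 0.90 for Nts and 0.87 for Pdyn (rho 0.92 and 0.87), against 0.40 for Vgf (rho 0.44). The low value for Vgf rested on 2 libraries: without the 2 farthest from the median of this mean, r was 0.89 for Nts, 0.93 for Pdyn and 0.85 for Vgf. Those 2 were combination library 4 (striatal mean 2.72, Vgf 275 TPM, its highest value) and anti-PD1 library 2 (5.8, Vgf 96.8 TPM, the lowest of its group). Within groups, with all 15 libraries, r was 0.72 for Nts and 0.55 for Pdyn, against −0.42 for Vgf. The within-group r was not computed without those 2 libraries, so the sign for Vgf is uncertain. The 16 cell cycle genes had the reverse order, at 4.30 ± 1.15 in combination, 3.65 ± 0.65 in anti-PD1, 4.83 ± 0.64 in vorinostat and 5.12 ± 0.22 in control tumours. Within groups, r of Pdyn was −0.81 with the cell cycle mean and 0.60 with the pan-neuronal mean. Both were larger in size than its 0.55 with the striatal mean. For Nts they were −0.52 and 0.50, against 0.72 with the striatal mean. The part of striatal tissue or of tumour cell number in the Nts and Pdyn values was not tested.

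Other neuropeptide precursors partly shared the anti-PD1 pattern. Of 32 listed, 26 were measured above the filter, and with anti-PD1 against control 3 rose, 1 fell and 22 did not pass in limma's test, with a median change of 0.43. By the same test 5.29% of all genes changed. Unadjusted p was under 0.05 for 8 of the 26, against 34.2% of all genes. The enkephalin precursor Penk averaged 208 ± 98.8 TPM in combination, 575 ± 149 TPM in anti-PD1, 169 ± 50.7 TPM in vorinostat and 70.9 ± 25.7 TPM in control tumours, with an anti-PD1 change of 3.02 (SE 0.40, limma adjusted p = 0.0104). Tac1, the substance P precursor, rose by 2.59 (SE 0.54, adjusted p = 0.031) and Sst, the somatostatin precursor, by 1.45 (SE 0.34, adjusted p = 0.0373). Calca, the CGRP and calcitonin gene, fell by 0.74 (SE 0.18, limma adjusted p = 0.0415) at a mean of 1.00 TPM with anti-PD1, against 2.39 TPM in control tumours. Without control library 1 or 2 none of these calls held, and without control library 3 that of Penk alone did (3.29, limma adjusted p = 0.038). Penk and Tac1 are also on the striatal list and Sst on the interneuron list. In the averaged anti-PD1 effect Penk alone passed (1.61, limma adjusted p = 0.031), and in the other 4 comparisons none of the 26 did.

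The machinery that makes and reads these peptides did not pass. Of 25 granule and processing genes 21 were tested and none changed in limma's test in any of the 6 comparisons. With anti-PD1 against control 7 of them had an unadjusted p under 0.05, a share close to the 34.2% of all genes, and 1 passed with voom on recovered reads. Their median change there was 0.20, and the smallest p-values belonged to the protease gene Ctsl (−0.50, adjusted p = 0.056), the granule membrane protein gene Ptprn (0.52, adjusted p = 0.0696), the granin gene Scg3 (0.36, adjusted p = 0.0833) and the convertase gene Pcsk2 (0.77, adjusted p = 0.0876). Of 10 receptor genes 7 were tested and none passed in limma's test in any comparison, with 0 at an unadjusted p under 0.05 with anti-PD1, against 34.2% of all genes, and 0 with voom. All 7 had positive changes with anti-PD1 against control, with a median of 0.63, against −0.14 over all genes. In combination against anti-PD1 their median was −0.56, with 1 positive. With anti-PD1 the dynorphin receptor gene Oprk1 had 1.07 (SE 0.51, limma adjusted p = 0.154), and Sort1, which encodes the neurotensin-binding sortilin, 0.57 (SE 0.28, adjusted p = 0.171). C3ar1, whose product has been described in rodents as a receptor of a Vgf-derived peptide, had 0.45 (SE 0.14, limma adjusted p = 0.558) in the combination and 0.03 (SE 0.14) with anti-PD1.

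Genes that neuronal activity and neurotrophins induce, as Vgf is, passed in part. All 20 listed were tested, and with anti-PD1 against control 2 rose and 18 did not pass, where 1.77% of all genes rose. Their median change was 0.96, against −0.14 over all genes, and 18 of the 20 were positive. Unadjusted p was under 0.05 for 10 of the 20, against 34.2% of all genes. In the averaged anti-PD1 effect none passed, with 10 at an unadjusted p under 0.05, against 22.1% of all genes. The immediate early gene Egr4 averaged 11.3 ± 7.70 TPM in combination, 15.1 ± 8.10 TPM in anti-PD1, 6.17 ± 3.11 TPM in vorinostat and 1.86 ± 1.00 TPM in control tumours, an anti-PD1 change of 2.38 (SE 0.56, limma adjusted p = 0.0377). The clock gene Per1 rose by 0.91 (SE 0.25, adjusted p = 0.0488). Junb had 1.34 (SE 0.39, adjusted p = 0.0557) and Homer1 0.98 (SE 0.33, adjusted p = 0.0733). Egr1 and Fos, which are not among those of smallest p, had 0.09 and 0.34. Against control, the combination had 1.93 for Egr4 (SE 0.56, limma adjusted p = 0.454) and 1.42 for Junb (SE 0.39, adjusted p = 0.388), and none of the 20 passed there, with 3 at an unadjusted p under 0.05, against 5.76% of all genes, and 0 with voom.

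Of the other marker lists, the interneuron list had 3 of 10 genes that rose with anti-PD1 (Gad1, Gad2 and Sst) and the pan-neuronal list 1 of 16 (Grin1, 0.99, limma adjusted p = 0.0479), where 1.77% of all genes rose. The voom test called 2 of the interneuron genes and 0 of the pan-neuronal genes. None of 10 cortical excitatory neuron genes, 9 glioma and progenitor genes, 16 cell cycle genes, 8 microglia and macrophage genes, 7 hypothalamic or 4 pituitary genes measured above the filter passed in limma's test. The cell cycle genes had an unadjusted p under 0.05 in 16 of 16 and the glioma genes in 3 of 9, all with negative changes, against 34.2% of all genes. That count was 3 of 10 for the cortical list, 1 of 8 for microglia and macrophages, 1 of 7 for the hypothalamic and 0 of 4 for the pituitary list, and voom called 0 in each of these lists. Of 8 T cell genes 4 were measured above the filter, and Cd4 rose by 1.64 (SE 0.42, limma adjusted p = 0.0459).

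Among 11175 genes outside the lists with a mean of at least 5 TPM, those most like Vgf over the 15 libraries by Pearson's r of log2(TPM + 1) were Syt6 (0.87), Fam43b (0.87), Id1 (0.86), Sh2d5 (0.85) and Hsph1 (0.85). Those most like Nts were Strip2 (0.93), Tlcd1 (0.93), Rap1gap (0.93), Ighv8-5 (0.91) and Gm47982 (0.91), of which Ighv8-5 is one of many near-identical immunoglobulin segments and uncertain. None of the 5 named for Vgf was among the 5 named for Nts, but lists this short out of 11175 genes would seldom share one. These r also include the group differences by which Vgf and Nts were chosen. Within the set, the pairs of highest r were Nts with Pdyn (0.88), Adcyap1 with Pcsk1 (0.87) and Chga with Chgb (0.85), a ranking that includes the differences between groups by which Nts was chosen. After group means were removed it was 0.64 for Nts with Pdyn, and the highest were Scg2 with Adcyap1 (0.91), Chga with Chgb (0.91) and Adcyap1 with Pcsk1 (0.89). With the group differences included, r of Vgf with the other 9 ran from 0.23 (Cartpt) to 0.63 (Scg2).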

How the data were processed

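Total RNA of 15 tumour samples was sequenced from unstranded libraries. The tools named in the submitters' processing notes are DESeq2, StringTie, HISAT2 and FastQC, and the build is mm10, with versions and annotation not given in the sources used here. The authors deposited 1 table of TPM for 38172 symbols. TPM times gene span (GENCODE vM21) came out as whole reads, within 0.001, for 36036 of the 36477 symbols with 1 annotated gene (98.8%), so lengths included introns and TPM of genes with long introns is lowered.

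Tests used limma 3.58.1 in R 4.3.3 (lmFit, contrasts.fit, eBayes with a trend) on log2(TPM + 1) of the 19390 genes that reached 1 TPM in 3 or more libraries, 1 mean per group, all 15 libraries in 1 fit, and Benjamini-Hochberg adjustment over all genes at 0.05. The pseudocount understates changes of low genes. The fit was tested on simulated data. The members and lists were chosen with earlier results of these data known. Text names all 10 members, 2 to 4 members of smallest p of each peptide list, and the 5 genes most correlated with Vgf and with Nts. Alternatives were a pseudocount of 0.1, no filter, median-of-ratios scaling, voom on recovered reads (18455 genes), the replicate number as a block, only the compared groups, the pan-neuronal mean as a covariate, and leaving out each library.

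Replicate numbers are in the labels, which give them no meaning. Libraries of the same number in anti-PD1 and the combination deviated together (correlations of 0.20, 0.64, 0.43 and 0.29), which does not show that they were paired. The number was a block only in an alternative fit, and the main tests do not use it. Every other pair of groups had a correlation under 0.1 for some number, while number 3 had 0.30 to 0.55 in all pairs of groups.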

Additional observations from a re-analysis of the deposited data

Results flagged for a closer look

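Among 30 groups of 4 libraries checked, 2 had a library far from the others by the gap to its nearest neighbour over the range of the group (above Dixon's 95% critical value), and chance gives about 1 in 20. Scg2 had 787 TPM in anti-PD1 library 1, with a gap over range of 0.88, where the other 3 anti-PD1 libraries had 354 to 406 TPM. Its change with anti-PD1 was 1.57 with all libraries and 1.32 without that one. Chga had 45.4 TPM in combination library 1, with a gap over range of 0.925, where the other 3 combination libraries had 64.4 to 65.9 TPM. That value lies within the 38.8 to 70.3 TPM of the control tumours.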

How the results depend on the processing

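Of 1040 values of the 8 tested members under the alternatives, 973 kept their direction and side of the threshold, 4 lost and 9 gained a call, and 54 changed sign. Sign changes touched 24 of 48 member values, none of them called, with a change of at most 0.73. Under the pseudocount of 0.1, no filter, median-of-ratios scaling and voom, all 48 kept both. The cause was not tested for any value below. Rescaling moved the median of all genes by 0.13, −0.12 and −0.17 in anti-PD1 against control, combination against anti-PD1 and the interaction.

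With the pan-neuronal mean as a covariate, the anti-PD1 changes against control were −0.22 for Chga, −0.16 for Cck, −0.59 for Adcyap1 and 0.00 for Pcsk1, and the averaged effects were −0.19 for Chga, −0.26 for Cartpt and −0.30 for Adcyap1. In combination against anti-PD1 they were 0.29 for Chga and Pcsk1, 0.68 for Cck and 0.74 for Adcyap1, in the interaction 0.06 for Chga, 0.08 for Pcsk1, 0.61 for Cck and 0.59 for Adcyap1, and for Chgb −0.06 with vorinostat and in the combination. Pdyn lost its anti-PD1 call with the covariate (2.02), so members changed with anti-PD1 were 0. Leaving out single libraries gave 0 to 3 members, and Adcyap1 ranged from −0.01 to 0.82. Members changed in the averaged effect ranged from 0 to 1, and Adcyap1 there from −0.05 to 0.41. With vorinostat, Chga ranged from −0.10 to 0.52, Chgb from −0.36 to 0.34, Cck from −0.28 to 0.56, Adcyap1 from −0.18 to 0.72 and Pcsk1 from −0.04 to 0.68. In the combination, Chga ranged from −0.11 to 0.31, Chgb from −0.12 to 0.13, Cartpt from −0.06 to 0.77 and Adcyap1 from −0.18 to 0.68. In combination against anti-PD1, Cck ranged from −0.39 to 0.09 and Adcyap1 from −0.57 to 0.14, and in the interaction Cck from −0.66 to 0.18 and Adcyap1 from −0.86 to 0.04.

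With the replicate number as a block, 2 members changed with anti-PD1 (Pdyn, and Scg2 with 1.44, adjusted p = 0.0379) and 1 in the averaged effect (Pdyn, 1.25, adjusted p = 0.0393). The labels give the number no meaning, so the block is not a known pairing in any comparison. The block changed no other member call, and turned the changes with vorinostat of Chgb (−0.15), Cck (−0.08) and Adcyap1 (−0.02) and in the combination of Chga (−0.05), Chgb (−0.15) and Adcyap1 (−0.02).

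Counts of all genes moved widely. With anti-PD1, 1026 genes became 300 with no filter, 579 with voom, 2621 with the block, 32 with the covariate, 183 with only the compared groups, and 0 to 4982 without single libraries. With vorinostat, 1 became 4 with no filter, 2 with only the compared groups, and 0 to 2 without single libraries. In the combination, 4 became 8 with no filter, 20 with the block, 26 with the covariate, 1 with only the compared groups, and 2 to 13 without single libraries. In combination against anti-PD1, 3 became 0 with the pseudocount of 0.1, 14 with no filter, 1 with voom, 115 with the block, 0 with the covariate, 0 with only the compared groups, and 0 to 671 without single libraries. In the averaged effect, 91 became 60 with no filter, 171 with rescaling, 51 with voom, 663 with the block, 53 with the covariate, and 7 to 565 without single libraries. In the interaction, 2 became 0 with the pseudocount of 0.1, 9 with no filter, 1 with rescaling, voom, the block or the covariate, and 0 to 5 without single libraries. The highest counts with anti-PD1 (4982), in combination against anti-PD1 (671) and in the averaged effect (565) came without anti-PD1 library 3, and the lowest with anti-PD1 (0) and in the averaged effect (7) without control library 1. Each member had 114 or more reads in every library, and control had 3 libraries.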

Other observations

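Peptide hormone genes of the hypothalamus and pituitary varied between libraries of all groups. The oxytocin gene Oxt averaged 14.5 ± 21.3 TPM in combination, 13.9 ± 19.3 TPM in anti-PD1, 33.0 ± 41.2 TPM in vorinostat and 1.28 ± 2.22 TPM in control tumours, with a highest library of 87.9 TPM. The vasopressin gene Avp averaged 13.0 ± 16.7 TPM in combination, 11.8 ± 18.2 TPM in anti-PD1, 13.2 ± 13.5 TPM in vorinostat and 0.55 ± 0.649 TPM in control tumours. The pituitary growth hormone gene Gh averaged 24.9 ± 34.6 TPM in combination, 1.22 ± 2.23 TPM in anti-PD1, 8.11 ± 13.4 TPM in vorinostat and 2.26 ± 3.70 TPM in control tumours, with a highest library of 73.4 TPM. In the treated groups the SD of Oxt and Gh exceeded the mean, and of 7 hypothalamic and 4 pituitary genes tested none passed in limma's test with anti-PD1 against control, with 1 and 0 at an unadjusted p under 0.05 (34.2% of all genes) and 0 with voom.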
